A study of Mus musculus with 2 samples.

Results

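Microglia are the resident macrophages of the brain, and their marker genes show whether RNA of these cells are found in a preparation of other cells. The 9 genes described here are C1qa, C1qb, C1qc, Tyrobp, Fcer1g, Ctss, Cx3cr1, Csf1r and P2ry12, taken by symbol from a table of 53465 mouse genes. All 9 symbols were found, each in 1 row: ENSMUSG00000036887 (C1qa), ENSMUSG00000036905 (C1qb), ENSMUSG00000036896 (C1qc), ENSMUSG00000030579 (Tyrobp), ENSMUSG00000058715 (Fcer1g), ENSMUSG00000038642 (Ctss), ENSMUSG00000052336 (Cx3cr1), ENSMUSG00000024621 (Csf1r) and ENSMUSG00000036353 (P2ry12). They were set beside the endothelial genes Cldn5 and Flt1 and beside 1406 rows of olfactory receptor (Olfr) genes, which endothelial cells and microglia are not known to use.

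The series set isolated cells, labelled as endothelial, from C57Bl/6 mice of the tie2-cre genotype treated with NeuroD1, a transcription factor of neuronal differentiation, against cells of the same label, strain and genotype treated with GFP, a fluorescent protein. With 1 library for each treatment, the differences below could not be checked in replicates and carry no p-values. All mice of both groups carried the Cre recombinase under the Tie2 promoter, which is active in endothelial cells and also in part of the blood-forming lineage. Per the labels, cells of 3 mice were collected and 10000 cells were lysed. The series title places the work in intravenous gene therapy after ischemic stroke. Whether these mice had a stroke or were pooled, their age, the tissue, the vector, the dose, the time and the way the cells were isolated are not given in the sources used here.

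In the brain, microglia depend on signalling through Csf1r, which binds the growth factors Csf1 and Il34. They read the neuronal chemokine Cx3cl1 through Cx3cr1 and extracellular ADP through P2ry12. C1qa, C1qb and C1qc encode the 3 chains of C1q, the first component of the classical complement pathway, which is assembled from equal numbers of each chain. Tyrobp and Fcer1g encode membrane adaptors with an activation motif that pass signals from receptors such as Trem2 and the Fc receptors to the kinase Syk. Ctss encodes cathepsin S, a lysosomal protease. Tyrobp, Fcer1g and Ctss are also used by other myeloid cells, Tyrobp and Fcer1g by natural killer cells as well, and P2ry12 and Fcer1g by platelets.

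Values are FPKM as the authors deposited them, a level per length of exon, divided by a library factor whose basis is not given. Reads were recovered from FPKM and exon length, 2001426 in the NeuroD1 library and 2011130 in the GFP library, of which the predicted gene Gm10800 alone took 41.9% and 37.7%. FPKM times exon length was 513 for 1 read in the NeuroD1 library and 453 in the GFP library. These sizes differ although the recovered totals were nearly equal, so the values may already be scaled between libraries. The 9 microglial genes together held 117 reads in the NeuroD1 library and 159 in the GFP library. Intervals are exact 95% intervals for independent reads and cover the counting error of reads only. Several reads may stem from 1 molecule, and the intervals are then too narrow. Neurod1 itself stood at 182 FPKM in the NeuroD1 library and 0.664 FPKM in the GFP library.

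The microglial genes lay below Cldn5 and Flt1 in both libraries, Tyrobp by the least, and their lower members lay among the olfactory receptors. Their median level was 3.25 FPKM in the NeuroD1 library and 4.17 FPKM in the GFP library. The mean of Cldn5 and Flt1 was 8.12 times that median in the NeuroD1 library and 6.82 times in the GFP library. This distance depends on the measure: the microglial median was 0.123 of that mean in the NeuroD1 library and 0.147 in the GFP library, but 0.248 and 0.340 of the median of 16 endothelial markers, and 0.0713 and 0.0961 of the mean of Cldn5 and Flt1 once Olfr medians were subtracted. With the mean of the 9 genes in place of their median, it was 0.159 in the NeuroD1 library and 0.153 in the GFP library, which turns the order of the libraries. Cldn5, a tight junction protein of the brain endothelium, stood at 31.5 FPKM (87 reads) in the NeuroD1 library and 33.9 FPKM (106 reads) in the GFP library. Flt1, a VEGF receptor, stood at 21.3 FPKM (561 reads) in the NeuroD1 library and 22.9 FPKM (684 reads) in the GFP library. The Olfr rows had a median of 1.48 FPKM in the NeuroD1 library and 1.59 FPKM in the GFP library, and their 95th percentile was 5.62 and 5.001 FPKM in these libraries. Of the Olfr rows, 93.8% were above 0 in the NeuroD1 library and 95.7% in the GFP library, with single rows as high as 103 and 74.5 FPKM.

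**Figure D1:**
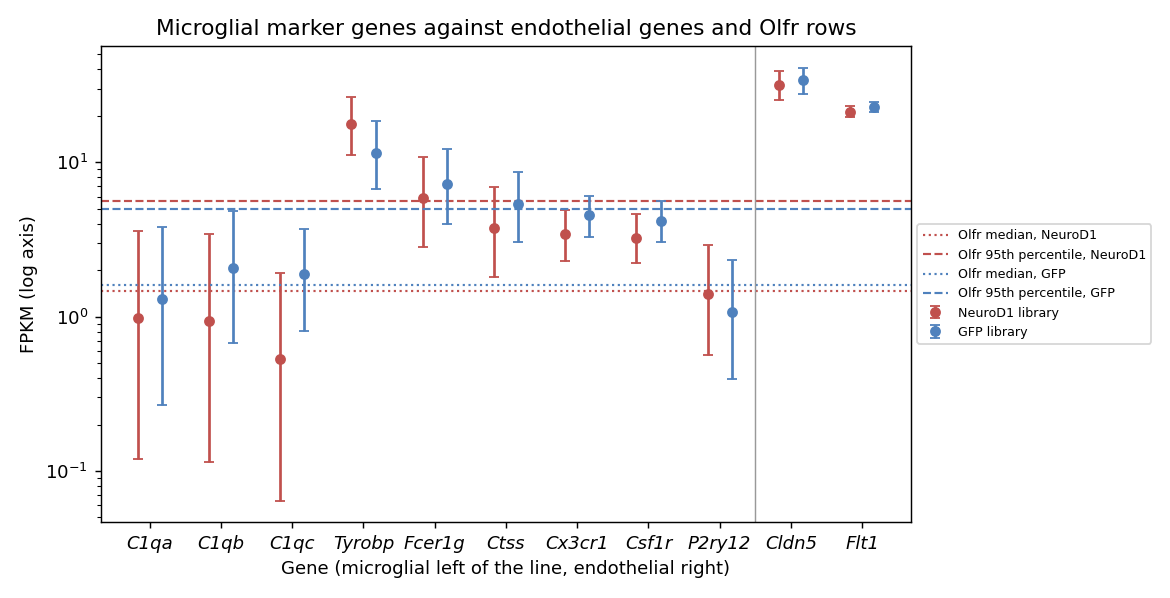
FPKM (log axis) of the 9 microglial genes and of Cldn5 and Flt1 in the NeuroD1 library (red) and the GFP library (blue), with exact 95% counting intervals and 1 library per group. Dotted and dashed lines mark the median and 95th percentile of 1406 Olfr rows in each library. The C1q genes and P2ry12 sit around the dotted lines, and Tyrobp alone comes near the endothelial genes.

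The C1q genes lie side by side on the minus strand of chromosome 4 in GRCm38, the build the submitters' notes name. C1qb spans 136880129 to 136886187, C1qc 136889804 to 136893065 and C1qa 136895917 to 136898803, with gaps of 3616 and 2851 bases between them. C1qa stood at 0.986 FPKM (2 reads, interval 0.119 to 3.56 FPKM) in the NeuroD1 library and 1.31 FPKM (3 reads, interval 0.269 to 3.82 FPKM) in the GFP library. C1qb stood at 0.943 FPKM (2 reads, interval 0.114 to 3.40 FPKM) in the NeuroD1 library and 2.08 FPKM (5 reads, interval 0.676 to 4.85 FPKM) in the GFP library. C1qc stood at 0.531 FPKM (2 reads, interval 0.0643 to 1.92 FPKM) in the NeuroD1 library and 1.88 FPKM (8 reads, interval 0.810 to 3.70 FPKM) in the GFP library. All 6 intervals include the Olfr median of their library. At that median, genes of the exon lengths of C1qa, C1qb and C1qc would hold 2.99, 3.13 and 5.56 reads in the NeuroD1 library and 3.66, 3.82 and 6.79 reads in the GFP library. The 3 chains were thus not detectable above the level of the olfactory receptors at this depth, in either library.

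P2ry12, the ADP receptor that marks resting microglia, stood at a similar level. It lies on chromosome 3 at 59216272 to 59262871 on the minus strand, and shares 9 exon bases with the opposite-strand gene Med12l. It stood at 1.41 FPKM (7 reads, interval 0.567 to 2.90 FPKM) in the NeuroD1 library and 1.07 FPKM (6 reads, interval 0.392 to 2.32 FPKM) in the GFP library. The Olfr median would give 7.33 and 8.95 reads at its exon length in these libraries.

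Tyrobp was the highest of the 9 in both libraries. It lies on the plus strand of chromosome 7 at 30413760 to 30417585, with 667 exon bases the shortest of the set. It stood at 17.7 FPKM (23 reads, interval 11.2 to 26.5 FPKM) in the NeuroD1 library and 11.5 FPKM (17 reads, interval 6.72 to 18.5 FPKM) in the GFP library. In the NeuroD1 library 99% of Olfr rows were lower and in the GFP library 98.5%. It made up 46.7% of the summed FPKM of the 9 genes in the NeuroD1 library and 29.5% in the GFP library.

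Fcer1g, on chromosome 1 at 171229572 to 171234365 on the minus strand, stood at 5.87 FPKM (10 reads, interval 2.81 to 10.8 FPKM) in the NeuroD1 library and 7.25 FPKM (14 reads, interval 3.96 to 12.2 FPKM) in the GFP library. Ctss, on chromosome 3 at 95526786 to 95556403 on the plus strand, stood at 3.78 FPKM (10 reads, interval 1.81 to 6.94 FPKM) in the NeuroD1 library and 5.33 FPKM (16 reads, interval 3.05 to 8.66 FPKM) in the GFP library. Both adaptors were above the Olfr 95th percentile in both libraries, whereas Ctss was above it in the GFP library and below it in the NeuroD1 library. The lower bounds of Fcer1g and Ctss fell below that percentile in both libraries. The reads behind these short genes are few, and FPKM divides by exon length although reads of a 3' method gather at the transcript end, so levels of short and long genes on this scale compare with that limit.

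The start regions of C1qb, Fcer1g and Ctss are shown as those of 1 member at the olfactory receptor level and 2 above it. The myeloid factor PU.1, encoded by Spi1, binds sites around GAGGAA. The 250 bases before the RefSeq start (GRCm38.p6) follow, read on the strand of each gene, with matches to GAGGAA on either strand (TTCCTC on the other) in capitals. The first is C1qb at chr4:136886201-136886450 on the minus strand, the second Fcer1g at chr1:171234350-171234599 on the minus strand and the third Ctss at chr3:95526536-95526785 on the plus strand.
C1qb: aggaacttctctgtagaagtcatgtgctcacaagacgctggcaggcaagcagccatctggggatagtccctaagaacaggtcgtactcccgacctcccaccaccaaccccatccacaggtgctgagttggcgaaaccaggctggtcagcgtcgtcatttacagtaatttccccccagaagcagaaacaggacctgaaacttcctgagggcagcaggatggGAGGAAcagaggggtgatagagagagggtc
Fcer1g: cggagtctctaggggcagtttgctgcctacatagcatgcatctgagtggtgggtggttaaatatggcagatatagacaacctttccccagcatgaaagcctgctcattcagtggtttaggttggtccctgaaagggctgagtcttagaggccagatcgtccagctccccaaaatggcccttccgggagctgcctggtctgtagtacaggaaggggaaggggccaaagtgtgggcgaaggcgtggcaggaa
Ctss: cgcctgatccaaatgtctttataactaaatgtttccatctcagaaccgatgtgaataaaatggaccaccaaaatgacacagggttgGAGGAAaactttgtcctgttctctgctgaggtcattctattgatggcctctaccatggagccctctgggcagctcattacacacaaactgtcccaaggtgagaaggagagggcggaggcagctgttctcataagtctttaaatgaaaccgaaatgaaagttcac
The 6 letters were found once before C1qb and once before Ctss, and not in the window of Fcer1g. Of the 9 genes 6 had a window, and 3 of these held the letters on one strand or the other, as did 23.3% of 32851 windows of all genes. A match is a run of letters and no measured site. Spi1 itself, named outside the naming rule, stood at 4.19 FPKM (22 reads) in the NeuroD1 library and 4.87 FPKM (29 reads) in the GFP library, below the Olfr 95th percentile in both.

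The receptors Cx3cr1 and Csf1r had the most reads of the set. Cx3cr1, on chromosome 9 at 119901616 to 120069879 on the minus strand, stood at 3.41 FPKM (30 reads, interval 2.304 to 4.87 FPKM) in the NeuroD1 library and 4.52 FPKM (45 reads, interval 3.30 to 6.05 FPKM) in the GFP library. Csf1r stood at 3.25 FPKM (31 reads, interval 2.21 to 4.62 FPKM) in the NeuroD1 library and 4.17 FPKM (45 reads, interval 3.04 to 5.58 FPKM) in the GFP library. In both libraries the intervals of these receptors lay above the Olfr median, and their values lay below the Olfr 95th percentile. Cx3cr1 shares 78 exon bases with the opposite-strand gene Gm33858 and Csf1r 873 with the opposite-strand gene Hmgxb3. Whether the counting used strand is not given, so reads of these pairs cannot be told apart.

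The order of levels was the same at the top in both libraries, Tyrobp, Fcer1g, Ctss, Cx3cr1 and Csf1r, with the C1q genes and P2ry12 below. Fcer1g, Ctss, Cx3cr1 and Csf1r overlapped in their counting intervals in each library, and so did the lowest 4. The highest member stood 33.3 times above the lowest in the NeuroD1 library and 10.8 times in the GFP library. Against Cldn5, Tyrobp was lower by a factor of 1.78 in the NeuroD1 library and 2.94 in the GFP library, and Cx3cr1 by 9.24 and 7.505. C1qc was lower than Cldn5 by a factor of 59.4 in the NeuroD1 library and 18.1 in the GFP library.

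**Figure D2:**
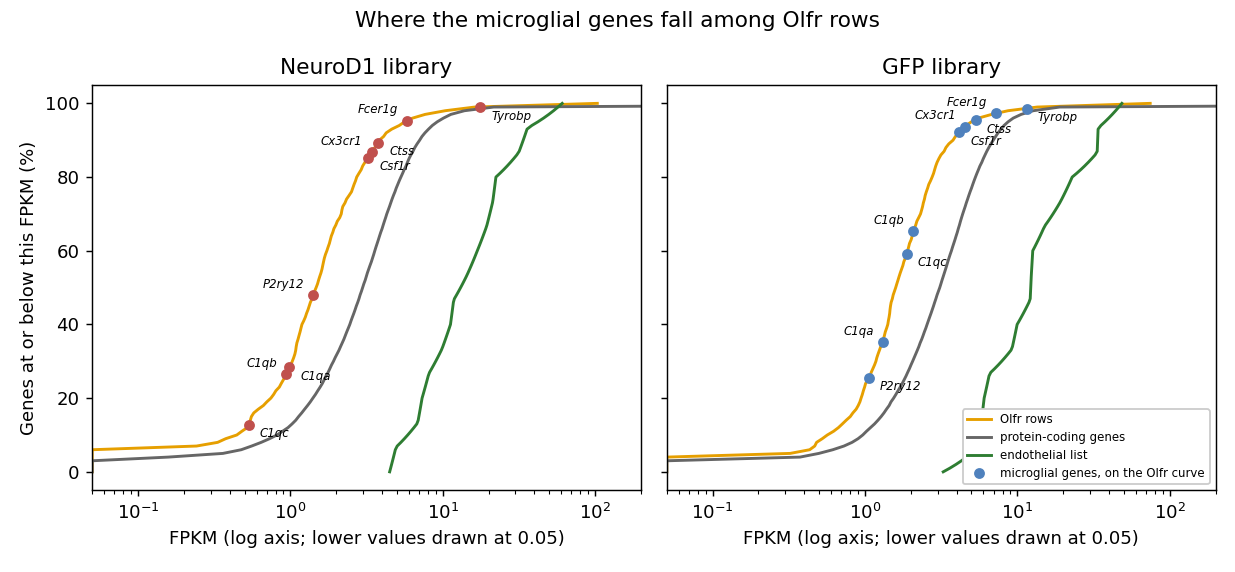
Cumulative share of genes (%) at or below a given FPKM (log axis) for Olfr rows, all protein-coding genes and the 16 genes of the endothelial list, with the NeuroD1 library left and the GFP library right. Dots mark the microglial genes on the Olfr curve, where P2ry12 and C1qa fall under the middle of the curve in both libraries and Tyrobp near its top.

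Of the 9 genes, 2 lay above the Olfr 95th percentile in the NeuroD1 library, where 17.7% of all protein-coding genes did, and 3 in the GFP library, where 23.0% did. Counting intervals lay wholly above the Olfr median for 5 members in each library. The same held for 56.7% of protein-coding genes with recovered reads in the NeuroD1 library and 57.3% in the GFP library, and for 18.9% and 17.6% of Olfr rows. These shares of the microglial genes were near those of protein-coding genes at large. Of the 16 endothelial markers, 14 lay above the percentile in the NeuroD1 library and 15 in the GFP library.

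Between the libraries, 7 of the 9 genes were lower in NeuroD1 and 2, Tyrobp and P2ry12, were higher, while 51.6% of 20697 protein-coding genes at 1 FPKM or more in one library or both were lower. The median difference in log2(FPKM + 1), NeuroD1 minus GFP, was -0.28 over the 9 genes, against -0.02 over those protein-coding genes. No member reached a difference of 1 on this scale, which counts as 2-fold, in either direction. With a pseudocount of 0.1 in place of 1, C1qb (-1.06) and C1qc (-1.65) did, and C1qc (-1.03) did after the FPKM of each library were set to an equal sum. Among those protein-coding genes 2.62% were at least 2-fold higher in NeuroD1 and 3.84% at least 2-fold lower. Among all genes with no minimum these shares were 8.12% and 11.6%. The scale understates differences of low genes.

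All 9 counting intervals of the FPKM ratio, NeuroD1 over GFP, included 1. Of 18654 protein-coding genes with recovered reads and at least 5 reads in all, 5.32% had an interval above 1 and 5.77% an interval below 1. The ratio was 1.53 for Tyrobp (interval 0.784 to 3.06) and 1.32 for P2ry12 (interval 0.380 to 4.76). C1qc and C1qb had the lowest ratios of the 9, 0.283 (interval 0.0293 to 1.42) and 0.453 (interval 0.0431 to 2.77), and C1qa had 0.755 (interval 0.0631 to 6.59). With the reads of the C1q genes summed, 6 in the NeuroD1 library and 16 in the GFP library, the scaled ratio was 0.425 with an interval of 0.136 to 1.14. Ctss, Fcer1g, Cx3cr1 and Csf1r had ratios of 0.708 (interval 0.287 to 1.66), 0.809 (interval 0.322 to 1.96), 0.755 (interval 0.459 to 1.23) and 0.780 (interval 0.477 to 1.26).

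**Figure D3:**
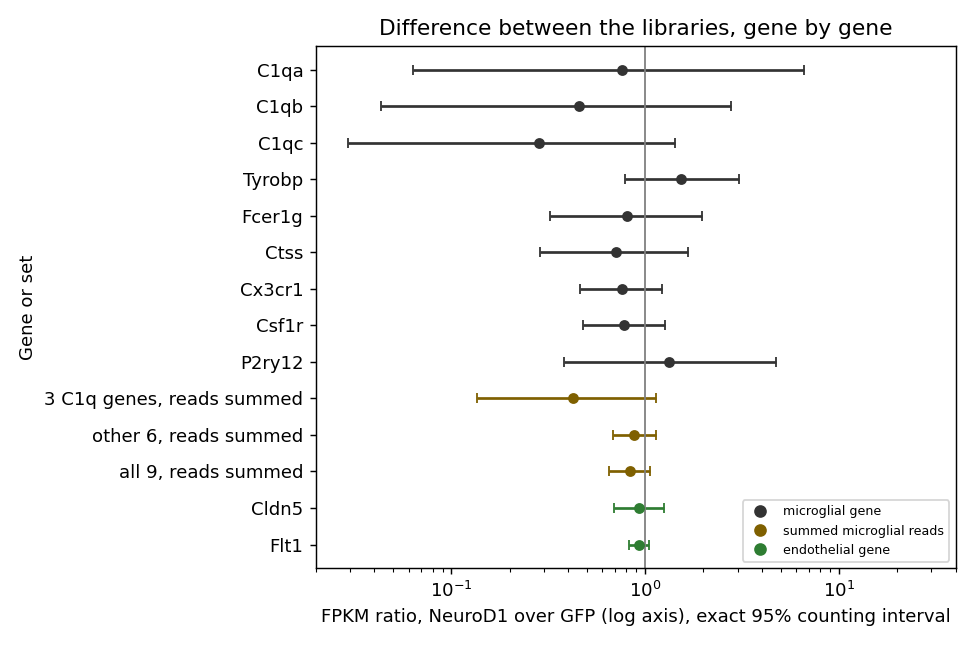
FPKM ratio of NeuroD1 over GFP (log axis) with exact 95% counting intervals for each microglial gene, for summed microglial reads scaled between libraries, and for Cldn5 and Flt1, 1 library per group. On the deposited scale every interval drawn includes 1, and those of the C1q genes are the widest on the low side.

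Cldn5 had a ratio of 0.930 (interval 0.692 to 1.25) and Flt1 of 0.929 (interval 0.829 to 1.04). These 2 genes do not stand for the whole endothelial list, of whose 16 genes 11 were higher and 5 lower in NeuroD1, with a median difference of 0.18, 5 intervals above 1 and 0 below. Summed over all 9 microglial genes, reads gave a scaled ratio of 0.833 (interval 0.651 to 1.06). The summed FPKM were 37.9 in the NeuroD1 library and 39.1 in the GFP library, a sum in which the higher Tyrobp offset the lower members. Without Tyrobp the ratio of the summed FPKM was 0.731, against 0.967 with it. In bulk RNA, fewer cells of a type and less RNA per cell cannot be told apart.

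The depth set what could be seen. With 45 reads in the GFP library, Cx3cr1 and Csf1r would have needed 60 reads in the NeuroD1 library, a ratio of 1.51, or 23 reads, a ratio of 0.579, for their interval to leave 1. Tyrobp would have needed 29 reads, a ratio of 1.93, and P2ry12 15 reads, a ratio of 2.83. For C1qa and C1qb even 0 reads in the NeuroD1 library would not have given an interval below 1, so no lower level of these genes was detectable at this depth.

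A wider list of microglial genes, some of them also used by other macrophages, such as Cd68, was also split by the Olfr percentile. Of 27 listed, 8 lay above the Olfr 95th percentile in the NeuroD1 library and 9 in the GFP library, with medians of 3.31 and 3.58 FPKM, none at 0 and summed levels of 124 and 121 FPKM. The most abundant were Cst3, an inhibitor of cysteine proteases, at 16.2 FPKM in the NeuroD1 library and 12.2 FPKM in the GFP library, and Sparc, a matrix protein, at 15.2 and 13.9 FPKM. Both are also used by other cells of the brain and its vessels. Tmem119 and P2ry13, named outside the rule as markers of microglia among brain cells, stood at 1.99 and 0.608 FPKM in the NeuroD1 library and 2.15 and 0.358 FPKM in the GFP library. Intervals of the ratio lay above 1 for 2 of the listed genes and below 1 for 1, beside 5.32% and 5.77% of protein-coding genes. The median difference of the list was -0.01, with 13 genes higher and 14 lower in NeuroD1. Its largest differences were those of Rgs10, a regulator of G protein signalling, at 6.89 FPKM (23 reads) in the NeuroD1 library and 2.38 FPKM (9 reads) in the GFP library (ratio 2.89, interval 1.29 to 7.11), and of Olfml3, a secreted glycoprotein, at 4.16 and 1.69 FPKM (ratio 2.46, interval 1.47 to 4.23).

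Among 20 listed genes of the Tyrobp and Fc receptor pathways, 15 were lower and 5 higher in NeuroD1, with a median difference of -0.21. The list holds receptors and signalling proteins, and not all of them bind Tyrobp or Fcer1g. Of protein-coding genes at 1 FPKM or more in one library or both, 51.6% were lower. Fcgr1, the high-affinity receptor for immunoglobulin G that signals through the Fcer1g chain, stood at 3.96 FPKM (20 reads) in the NeuroD1 library and 11.2 FPKM (64 reads) in the GFP library. Its ratio was 0.354 with an interval of 0.203 to 0.593, and it was the only gene of the list past 2-fold. Among those protein-coding genes 3.84% were at least 2-fold lower and 2.62% at least 2-fold higher. Syk, the kinase both adaptors recruit and named outside the rule, stood at 1.75 FPKM (32 reads) in the NeuroD1 library and 2.998 FPKM (62 reads) in the GFP library (ratio 0.585, interval 0.369 to 0.910). Fcgr1 and Syk were the 2 of 20 genes with an interval below 1, and none had one above 1. Of protein-coding genes with recovered reads and at least 5 reads in all, 5.77% had an interval below 1 and 5.32% above. Fcer1a, the chain that binds immunoglobulin E, stood at 9.25 and 13.2 FPKM in these libraries (interval 0.368 to 1.31), Fgr, a Src family kinase, at 8.76 and 7.15 FPKM (interval 0.852 to 1.77) and Trem1, a Tyrobp-coupled receptor, at 0.685 and 1.96 FPKM (interval 0.0828 to 1.13). Trem2, named outside the rule, stood at 1.04 and 2.20 FPKM, with an interval of 0.201 to 1.02.

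Of 15 other complement genes, 1 lay above the Olfr 95th percentile in the NeuroD1 library and 3 in the GFP library, and the median difference was -0.08. C3, the central component cleaved downstream of C1q, stood at 3.89 FPKM (39 reads) in the NeuroD1 library and 7.04 FPKM (80 reads) in the GFP library, with an interval of the ratio of 0.367 to 0.819. C3ar1, a receptor for a C3 fragment, stood at 7.74 and 6.94 FPKM (interval 0.780 to 1.596). Cfp, properdin of the alternative pathway, stood at 3.84 and 1.83 FPKM (interval 0.780 to 6.23).

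Of 16 lysosomal genes around Ctss, 5 lay above the Olfr 95th percentile in the NeuroD1 library and 10 in the GFP library, and 8 were higher and 8 lower in NeuroD1. Ctsb, cathepsin B, stood at 13.1 FPKM (154 reads) in the NeuroD1 library and 10.2 FPKM (136 reads) in the GFP library (interval of the ratio 1.01 to 1.63). Cd68, a lysosomal glycoprotein of macrophages, stood at 4.90 FPKM in the NeuroD1 library and 9.0035 FPKM in the GFP library (interval 0.249 to 1.12).

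The ligands of the member receptors were measured as well. Cx3cl1, the ligand of Cx3cr1, stood at 3.91 FPKM in the NeuroD1 library and 5.07 FPKM in the GFP library (interval of the ratio 0.469 to 1.26). Il34, a ligand of Csf1r, stood at 1.57 and 3.24 FPKM (interval 0.153 to 1.34), and Csf1, named outside the rule, at 3.69 and 3.34 FPKM. Entpd1, an enzyme that removes the ADP that P2ry12 reads, stood at 6.52 and 7.14 FPKM (interval 0.659 to 1.26), and Csf2, a growth factor of myeloid cells, had 2 reads in the NeuroD1 library and 6 in the GFP library. Another 10 genes were listed as purinergic receptors. Of these, P2rx4, an ATP-gated channel, stood at 6.93 FPKM in the NeuroD1 library and 5.09 FPKM in the GFP library, above the Olfr 95th percentile in both. P2rx7 stood at 4.21 and 4.02 FPKM in these libraries. P2ry6 stood at 2.13 and 3.92 FPKM (interval 0.249 to 1.12) and P2ry10 had 4 reads in the NeuroD1 library and 8 in the GFP library.

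Among 14 transcription factors of the macrophage programme, 2 lay above the Olfr 95th percentile in the NeuroD1 library and 1 in the GFP library. Cebpb, a factor that many cell types induce, stood at 35.1 FPKM (103 reads) in the NeuroD1 library and 25.9 FPKM (86 reads) in the GFP library (interval of the ratio 1.01 to 1.83). Cebpa, a myeloid factor, stood at 6.22 and 3.61 FPKM (interval 0.965 to 3.15), and Maf at 1.80 and 0.824 FPKM (interval 1.14 to 4.39). Sall1, a factor of microglial identity named outside the rule, stood at 0.779 FPKM in the NeuroD1 library and 1.204 FPKM in the GFP library, below the Olfr median in both.

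Of 20 genes of activated microglia, 4 lay above the Olfr 95th percentile in the NeuroD1 library and 5 in the GFP library. Il1b, an inflammatory cytokine, stood at 7.26 FPKM (27 reads) in the NeuroD1 library and 2.14 FPKM (9 reads) in the GFP library (ratio 3.40, interval 1.55 to 8.21). Apoe, a lipid carrier, stood at 13.4 and 12.7 FPKM in these libraries and Axl, a receptor for dying cells, at 7.95 and 7.56 FPKM. Ccl4 had 3 reads in the NeuroD1 library and 0 in the GFP library. Spp1, a secreted phosphoprotein named outside the rule, stood at 6.22 FPKM in the NeuroD1 library and 1.92 FPKM in the GFP library (interval 1.31 to 9.06). Lgals3 and Lpl, also outside the rule, had intervals below 1. Thus 2 of the 20 genes had an interval above 1 and 2 below, beside 5.32% and 5.77% of protein-coding genes. In NeuroD1, 13 of the 20 were higher and 7 lower, with a median difference of 0.085.

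**Figure D4:**
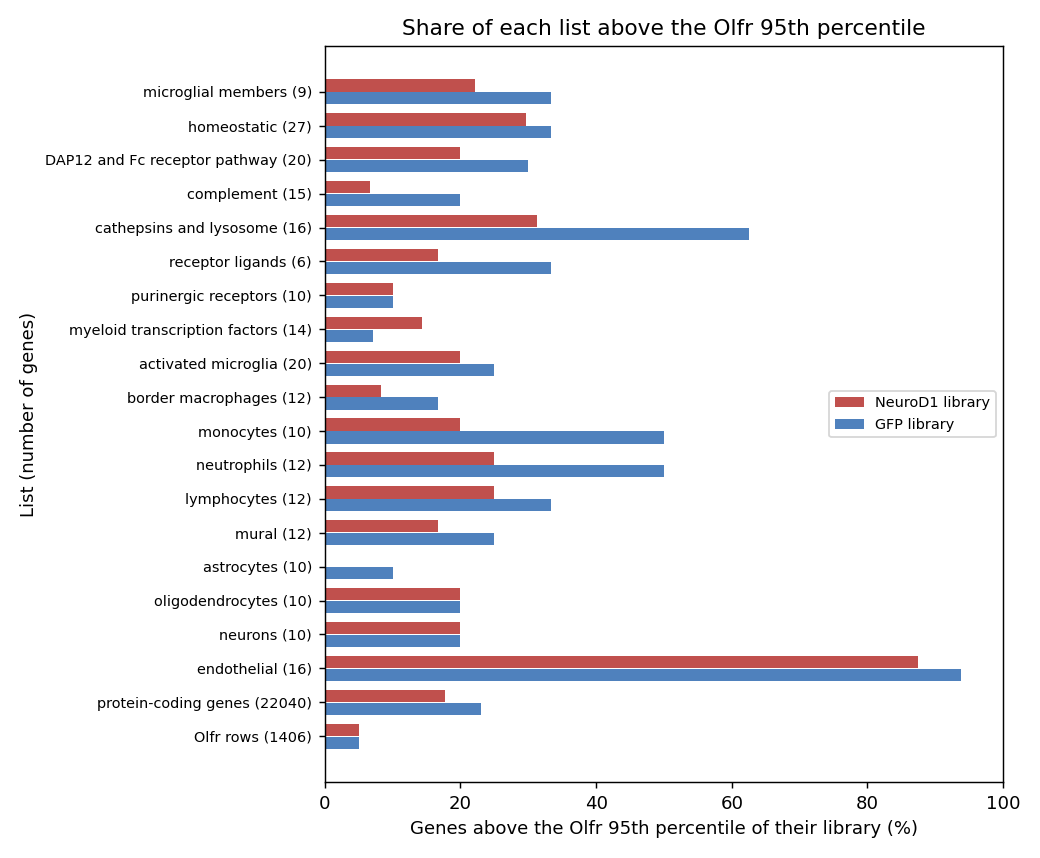
Share of the genes of each list (%, list size in brackets) above the Olfr 95th percentile of their library, for NeuroD1 (red, upper bar) and GFP (blue, lower bar). The endothelial list stands at 87.5% and 93.8%, the 9 microglial genes at 22.2% and 33.3%, and all protein-coding genes at 17.7% and 23.0%; astrocyte markers have no gene above it in NeuroD1.

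Tyrobp, Fcer1g and Ctss are shared with other blood cells, whose markers were measured as well. Of 12 neutrophil markers, 3 lay above the Olfr 95th percentile in the NeuroD1 library and 6 in the GFP library, with summed levels of 81.5 and 80.1 FPKM and none at 0. Ngp, a granule protein, stood at 21.8 FPKM in the NeuroD1 library and 19.3 FPKM in the GFP library, S100a9, a calcium-binding protein, at 20.6 and 10.4 FPKM (interval of the ratio 0.931 to 4.42), and Retnlg at 10.96 and 3.72 FPKM (interval 0.985 to 10.6). Elane, a neutrophil protease, stood at 1.56 FPKM (3 reads) in the NeuroD1 library and 11.96 FPKM (26 reads) in the GFP library (ratio 0.131, interval 0.0253 to 0.426).

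Of 12 markers of lymphocytes and natural killer cells, 3 lay above that percentile in the NeuroD1 library and 4 in the GFP library, with summed levels of 81.4 and 66.1 FPKM and none at 0. In NeuroD1, 6 of them were higher and 6 lower. Gzma, a protease of cytotoxic lymphocytes, stood at 39.8 FPKM (78 reads) in the NeuroD1 library and 25.7 FPKM (57 reads) in the GFP library (ratio 1.55, interval 1.09 to 2.22). Klrb1c, a natural killer cell receptor, stood at 6.58 and 7.19 FPKM (interval 0.581 to 1.43), Nkg7, a granule protein of these cells named outside the rule, had 4 reads in the NeuroD1 library and 5 in the GFP library, and Cd3d, a chain of the T cell receptor complex, at 2.83 and 1.25 FPKM. The part of these cells in the levels of Tyrobp and Fcer1g was not tested.

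Other macrophages and monocytes share part of the 9 genes too. Of 12 border macrophage markers, 1 lay above the percentile in the NeuroD1 library and 2 in the GFP library, with summed levels of 34.9 and 39.6 FPKM and none at 0. Stab1, a scavenger receptor that endothelial cells of some vessels also use, stood at 6.43 and 6.07 FPKM, Cd209f at 3.87 and 4.55 FPKM, Folr2 at 0.995 FPKM (3 reads) in the NeuroD1 library and 3.51 FPKM (12 reads) in the GFP library (interval 0.0513 to 1.05), and Pf4 at 2.13 and 5.65 FPKM (interval 0.0657 to 1.51). Of 10 monocyte markers, 2 lay above the percentile in the NeuroD1 library and 5 in the GFP library, with summed levels of 40.6 and 41.1 FPKM and none at 0. Ms4a4c stood at 11.1 FPKM in the NeuroD1 library and 6.72 FPKM in the GFP library, Fn1, fibronectin, at 8.47 and 7.01 FPKM and Chil3 at 2.51 and 5.83 FPKM.

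The endothelial list had the highest levels of the 18 lists by median, 13.1 FPKM in the NeuroD1 library and 12.3 FPKM in the GFP library, with Ly6c1, a surface antigen of these cells, at 60.8 and 48.6 FPKM and Slc2a1, the glucose carrier of the barrier, at 36.0 and 33.4 FPKM. Egfl7, a secreted endothelial protein, stood at 9.88 FPKM in the NeuroD1 library and 5.56 FPKM in the GFP library (ratio 1.78, interval 1.1996 to 2.65), and Emcn, a surface sialomucin, at 4.93 and 3.26 FPKM (interval 0.978 to 2.35). The 5 endothelial genes with an interval above 1 were Egfl7, Ly6c1, Vwf, Erg and Slco1a4, the last 3 named outside the rule, against 5.32% of protein-coding genes. Medians of the other brain lists were 2.54 FPKM in the NeuroD1 library and 3.43 FPKM in the GFP library for mural cells, 2.53 and 2.73 FPKM for astrocytes, 2.99 and 3.21 FPKM for oligodendrocytes, and 2.34 and 2.41 FPKM for neurons. The microglial median of 3.25 FPKM in the NeuroD1 library and 4.17 FPKM in the GFP library stood beside 2.98 and 3.10 FPKM for all protein-coding genes.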

How the data were processed

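Per the labels, RNA of lysed cells was reverse transcribed with DRUG-seq primers, a barcoded 3' method. The authors deposited FPKM values of both libraries in 1 table. Tools listed, per the submitters' processing notes, were featureCounts 1.6.3, DESeq and the aligner Bowtie2 2.3.5.1, with build GRCm38. How strand, multiply mapped reads and molecular identifiers were handled is not given.

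FPKM times merged exon length (GENCODE M21, an annotation of GRCm38) was divided by the step that makes values whole. This gave whole reads within 0.02 for 51162 genes (95.7%). For 8 listed genes (Csf1r, Cldn5, Acta2, Cd74, Mbp, Retnlg, Runx1 and Treml2), the only length within 50% of the annotated one that gave whole reads in both libraries within 0.001 was used instead. Reads of Aqp4, Gpr84, Myh11 and Olig2 could not be recovered, so these have no interval. Ratio intervals are Clopper-Pearson intervals on these reads, and intervals of a level are exact Poisson intervals. The read recovery and the ratio intervals were tested on simulated data, and the intervals of a level were not.

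FPKM divides by exon length, so equal numbers of 3' reads give a higher FPKM in a short gene such as Tyrobp. Tyrobp held 23 reads in the NeuroD1 library and 17 in the GFP library, against 1.92 and 2.34 at the Olfr median for its length. The part of exon length in its level was not tested. Differences are log2(FPKM + 1), NeuroD1 minus GFP. The 9 members and 17 other gene lists were chosen with earlier results of these data known. The genes named were the 9 members, Cldn5, Flt1, and from each list at most 2 of highest mean FPKM and 2 of largest difference at 1 FPKM or more; others are said to be outside the rule. Some genes that the rule names, among them those of the mural, astrocyte, oligodendrocyte and neuron lists, are not reported here. With 2 libraries no genes were ranked by likeness of pattern. Of 2 list symbols with several rows, the row of higher mean FPKM was used. Promoter windows are RefSeq's. Alternatives were other pseudocounts, scalings, filters and Olfr thresholds. Python 3.11.15, numpy 2.4.6, pandas 2.3.3, scipy 1.17.1 and matplotlib 3.10.9 were used.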

Additional observations from a re-analysis of the deposited data

How the results depend on the processing

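No paired analysis was possible because NeuroD1 and GFP have a single library each; leaving out a replicate could not be done either. Scaling to each library's total of recovered reads and leaving out the 3 members that share exon bases with another gene were chosen after seeing the data. The median difference of the 9 genes, -0.28, stayed between -0.47 (same sum of FPKM) and -0.17 (pseudocount of 5) under the 8 settings run. The median of protein-coding genes itself went to -0.20 under the same-sum scaling and to -0.15 with recovered totals, so the members are read against those. With Olfr medians subtracted, C1qa and P2ry12 were at 0 in both libraries. No setting gave a member at least 2-fold higher. The count at least 2-fold lower, 0, was 2 with a pseudocount of 0.1 (C1qb and C1qc) and 1 with the same sum of FPKM (C1qc). Members above the Olfr 95th percentile, 2 in NeuroD1 and 3 in GFP, were 0 and 0 against the Olfr maximum and 5 and 7 against the Olfr median, by construction of these thresholds. The summed FPKM ratio, 0.967, ranged from 0.731 without Tyrobp to 1.04 with Olfr medians subtracted. The microglial over endothelial level, 0.123 in NeuroD1 and 0.147 in GFP, was 0.0713 and 0.0961 with Olfr medians subtracted, 0.248 and 0.340 against the median of the endothelial list, 0.222 and 0.255 for the 3 members at 5 FPKM in one library or both, and 0.159 and 0.153 with the mean of members, where NeuroD1 is the higher. Depth, 2 to 45 reads per member and library, limits every comparison.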
